A study of Mus musculus with 9 samples.

Results

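The genes described here are the 38 of an exocytosis module, the proteins that dock, prime and fuse secretory granules with the plasma membrane. They were given as a list of symbols, with no measured value in the rule, and each was found among the 22048 genes of the count table by its Ensembl identifier. The mRNA came from pancreatic islets of the outbred mouse strain ICR, cultured for 3 days in RPMI medium at 11.8, 20 or 35 mM glucose, with 3 libraries for each concentration. All islets were kept in fetal bovine serum and antibiotics, and the 11.8 mM islets, in normal RPMI, are the control. For the top concentration the labels' account of the treatment says 25 mM, while titles, characteristics and design say 35 mM, the value followed here. The islets came from 9 mice, and the labels do not say that each library is a separate mouse, so the p-values reflect variation among libraries that may be technical. An islet library is a mixture of endocrine cells with some exocrine, stromal and immune cells, and in such bulk RNA fewer cells of a type and less RNA per cell cannot be told apart.

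Insulin leaves the beta cell by regulated exocytosis. A SNARE protein on the granule membrane, of the VAMP family, zips together with syntaxin and SNAP-25 proteins of the plasma membrane, and the energy of that pairing drives fusion. Rab GTPases and their effectors bring granules to the membrane, Munc13, CAPS and Munc18 proteins make them ready, complexins hold the primed complex, and synaptotagmins and Doc2 proteins couple fusion to the rise of calcium that follows glucose metabolism. After fusion the ATPase Nsf and its SNAP adaptors take the SNARE complex apart for reuse.

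Levels are given as CPM, a gene's read count scaled by the library's total count over the 9739 genes tested and its TMM factor. The CEL-Seq2 method counts a tag at the 3' end of a transcript, so that levels of different genes are set side by side with no division by length. How fully the tags of each gene were counted was not tested, and reads were not collapsed by identifier. Ratios between genes are therefore ratios of counts. Libraries held 3228648 to 4559561 gene counts and 13366 to 13923 detected genes, and the 38 members took 0.255% to 0.338% of the gene counts. Beta cell markers summed to between 449288 and 652890 CPM in a library, so the libraries carry the RNA of islets, whereas the 17 acinar markers in the table summed to between 3829 and 13441 CPM. No marker of any of the 9 cell type lists was at 0 in all libraries, but the beta cell marker Mafa had 1 count in all 9 together. Counts near 0 are therefore not read here as absence of a gene's mRNA. Fibroblast and stellate markers summed to 280 to 491 CPM at 35 mM, 299 to 450 CPM at 20 mM and 400 to 674 CPM at 11.8 mM. Sub-library 3 of 11.8 mM replicate 1 and of 35 mM replicate 1 stood apart, with 11.8% of its gene counts in Ins1 in the 11.8 mM library and 10.6% in Ins2 in the 35 mM library, and with alignments that were not unique at 60.9% and 72.0% of the gene counts. Without these 2 sub-libraries no member was called in any comparison either.

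RefSeq promoters (GRCm38.p6) were at hand for 27 of the 38 members, with 29 start sites, and the 250 bases before each start were searched on both strands. The E-box CACGTG is the core letters bound by basic helix-loop-helix factors such as USF and by the glucose-responsive pair ChREBP and MLX, and TGACG is the core of the cAMP response element bound by CREB. CACGTG was in 6 of the 29 member promoters (20.7%), against 6.02% of the 32851 promoters of the same length, and TGACG in 9 of the 29 (31%), against 17.8%. The full palindrome TGACGTCA, which holds TGACG, was in 0 member promoters, against 1.55% of all. These counts are descriptions of letters, not of binding, and no test was made of them. The promoters are shown for members that had an entry and an unadjusted p under 0.05 in a glucose comparison, with any CACGTG and TGACG in capitals. They are those of Rimbp2 at chr5:128953487-128953736, minus strand, Pclo at chr5:14514668-14514917, plus strand, Sytl4 at chrX:133981813-133982062, minus strand, and the inner of 2 starts of Rab27a at chr9:73063898-73064147, plus strand.
Rimbp2: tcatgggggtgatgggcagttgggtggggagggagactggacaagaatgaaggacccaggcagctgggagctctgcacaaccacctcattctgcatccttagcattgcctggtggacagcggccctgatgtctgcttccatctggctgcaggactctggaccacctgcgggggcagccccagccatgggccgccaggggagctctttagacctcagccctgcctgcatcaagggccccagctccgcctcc
Pclo: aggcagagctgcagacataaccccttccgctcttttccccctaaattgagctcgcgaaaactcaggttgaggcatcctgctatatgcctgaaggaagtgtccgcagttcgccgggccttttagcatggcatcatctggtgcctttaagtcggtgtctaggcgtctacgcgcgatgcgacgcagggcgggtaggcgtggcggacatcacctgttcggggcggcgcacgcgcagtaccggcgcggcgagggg
Sytl4: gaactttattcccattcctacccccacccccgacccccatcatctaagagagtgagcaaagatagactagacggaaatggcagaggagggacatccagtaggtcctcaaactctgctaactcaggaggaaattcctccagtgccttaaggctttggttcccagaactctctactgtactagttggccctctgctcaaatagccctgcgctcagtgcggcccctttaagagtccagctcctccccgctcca
Rab27a: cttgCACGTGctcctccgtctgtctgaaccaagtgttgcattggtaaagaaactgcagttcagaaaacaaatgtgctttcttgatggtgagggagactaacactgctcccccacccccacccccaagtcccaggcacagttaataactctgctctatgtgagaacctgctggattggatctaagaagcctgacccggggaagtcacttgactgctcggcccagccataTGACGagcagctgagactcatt
Of these 4 sequences, only that of Rab27a holds either motif in this window. The promoter of the outer start of Rab27a, at chr9:73044560-73044809, plus strand, is not shown and holds neither motif. The other members with an E-box are shown by 30 bases around it, with CACGTG in capitals, to let the flanks be compared. Napa has 3 of them, at chr7:16098383-16098412, chr7:16098432-16098461 and chr7:16098539-16098568, Stxbp2 has 1 at chr8:3631079-3631108 and Unc13b 1 at chr4:43058708-43058737, all on the plus strand. Cadps2 has 1 at chr6:23839482-23839511 and Nsf 1 at chr11:103954213-103954242, both on the minus strand.
Napa: cttatttggtgtCACGTGgcaatgcgcttg
Napa: gcggcgtgtgctCACGTGttgggggggggg
Napa: gttcgcagggttCACGTGgggtggcaggcc
Stxbp2: cccacggggtggggccCACGTGgatgacgc
Unc13b: ggaaactccacgCACGTGggaggagcaaaa
Cadps2: gacattccgttcCACGTGttgctcgggagg
Nsf: ccattaaaaggcCACGTGgccagctttgtg
Of these genes, Rab27a was lower at 20 and at 35 mM than at 11.8 mM without passing the test, as described below, and Napa, Stxbp2, Unc13b, Cadps2 and Nsf had no p under 0.05 in any comparison.

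The first question is which genes of each family had the most counts in the islets. A small group of genes held most of the module's RNA. The 8 members above 100 CPM, namely Syt7, Vamp2, Cplx2, Syt13, Sytl4, Rimbp2, Cadps and Syt5, held 69.5% of the members' counts, and Syt7 with Vamp2 held 34.0%. At the other end, 9 members averaged under 5 CPM over the 9 libraries. In most families 1 form was well above its relatives in every library, which the following paragraphs give by role.

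**Figure D1:**
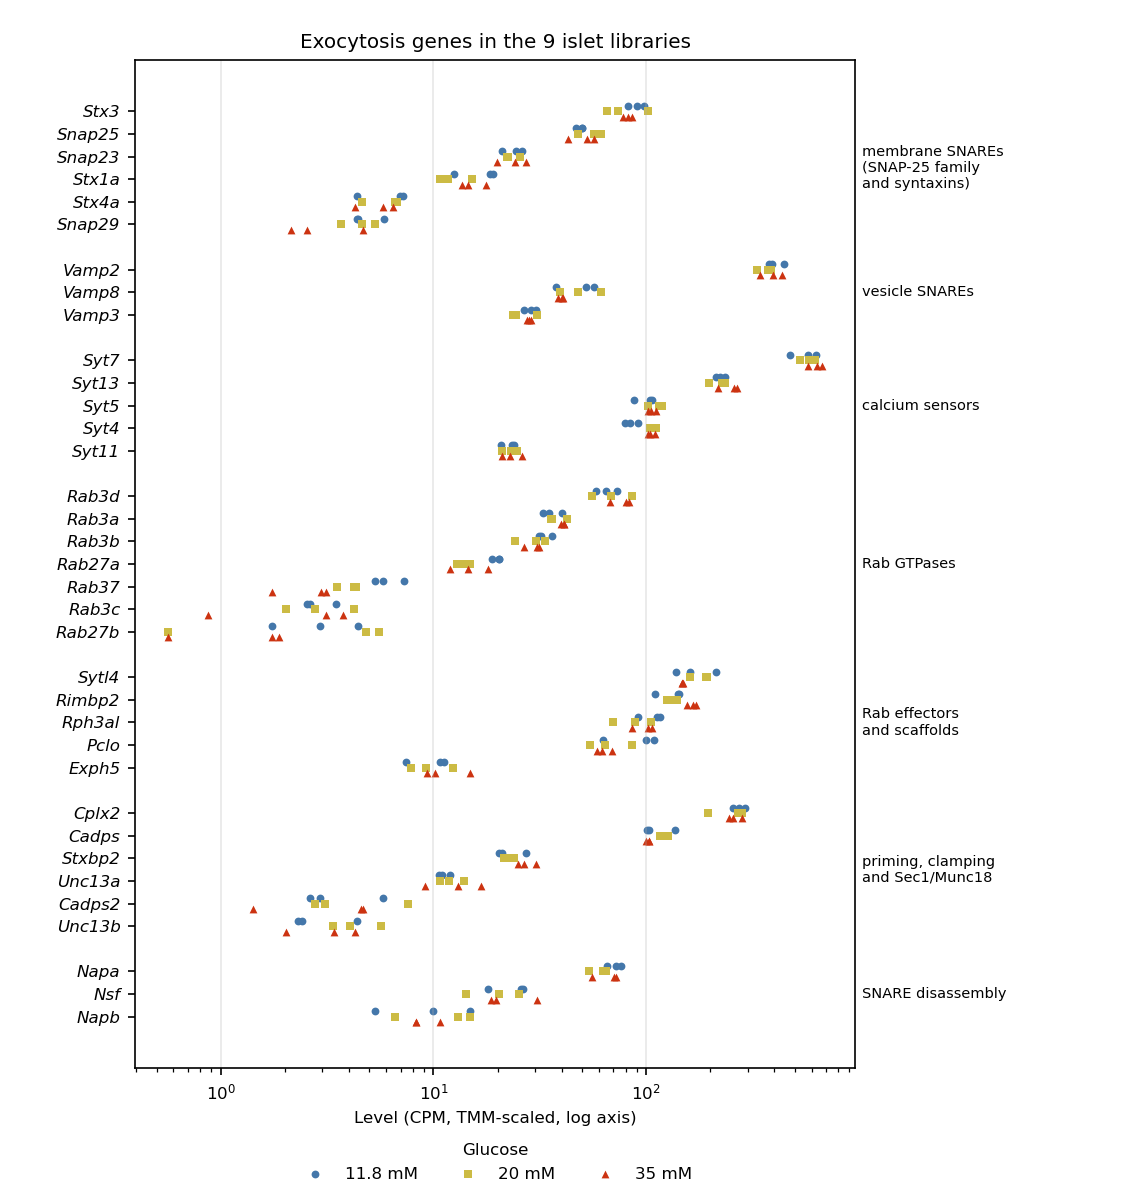
Level of the 35 tested members in each of the 9 libraries (TMM-scaled CPM, log axis), grouped by role and ordered by mean within a role; circles, squares and triangles are libraries at 11.8, 20 and 35 mM glucose. On average the members span from 2.69 CPM (Rab27b) to 587 CPM (Syt7), and for most members the 3 concentrations lie on top of each other.

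Among vesicle SNAREs, Vamp2, the SNARE of insulin granules and synaptic vesicles (ENSMUSG00000020894, chr11:69088490-69092384, plus strand), averaged 386 CPM, 8.37 times Vamp8 and 13.9 times Vamp3. Vamp8, also known from zymogen granules of acinar cells, averaged 46.1 CPM, and Vamp3, the broadly expressed cellubrevin, 27.7 CPM. The order was the same in 9 of 9 libraries and the ranges of the 3 genes did not overlap. On the plasma membrane side, Snap25 averaged 51.6 CPM, above its broadly expressed relative Snap23 with 23.6 CPM and above Snap29, which works mainly on inner membranes, with 4.17 CPM. Stx3, known in epithelia as the syntaxin of the apical membrane, averaged 84.1 CPM, 5.68 times Stx1a, the syntaxin classically paired with Snap25, and Stx4a, known for glucose transporter insertion in fat cells, averaged 5.88 CPM. Stx3 ranged over 65.7 to 102 CPM and Stx1a over 10.7 to 19.0 CPM, so that no library of either gene overlapped the other.

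The most abundant member was a calcium sensor. Syt7, a synaptotagmin of high calcium affinity on insulin granules (ENSMUSG00000024743, chr19:10389090-10453180, plus strand), averaged 587 CPM, and Syt13, a synaptotagmin that does not bind calcium (ENSMUSG00000027220, chr2:92915098-92956058, plus strand), 229 CPM. Syt5 (ENSMUSG00000004961, chr7:4539765-4547541, minus strand) averaged 106 CPM and Syt4, which has lost calcium binding in its first C2 domain (ENSMUSG00000024261, chr18:31437808-31447406, minus strand), 99.1 CPM. Syt5 was above Syt4 in 6 of 9 libraries and their ranges overlapped, so no order can be given for this pair. Syt11 averaged 23.0 CPM, below Syt4 in every library. Doc2b, a soluble calcium sensor, had 2, 1 and 3 counts at 11.8 mM, 5, 6 and 7 at 20 mM, and 4, 4 and 7 at 35 mM, too few for the expression filter.

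Among Rab GTPases, Rab3d averaged 70.5 CPM, above Rab3a with 38.2 CPM in every library. Rab3a was above Rab3b, with 30.8 CPM, in 9 of 9 libraries although their ranges overlapped, and Rab3c had 2.82 CPM. Rab27a, which marks docked granules, averaged 16.2 CPM, 6.02 times its relative Rab27b, and Rab37, a Rab of secretory granules, averaged 4.26 CPM. The levels of their effectors differed widely. Sytl4, or granuphilin, the Rab27a effector that docks insulin granules (ENSMUSG00000031255, chrX:133936385-133981812, minus strand), averaged 166 CPM, and Rph3al, or Noc2, an effector of Rab3 and Rab27, 97.4 CPM. Exph5, another Rab27 effector, averaged 10.3 CPM. Of the scaffolds, Rimbp2, which ties RIM proteins to calcium channels (ENSMUSG00000029420, chr5:128757791-128953486, minus strand), averaged 142 CPM, and Pclo, the large active zone protein piccolo (ENSMUSG00000061601, chr5:14514918-14863459, plus strand), 74.0 CPM. Rims2, the RIM scaffold that binds Rab3, had 9, 2 and 11 counts at 11.8 mM, 5, 5 and 7 at 20 mM, and 6, 14 and 5 at 35 mM, and was not tested.

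Among priming and clamping factors, Cplx2, a complexin (ENSMUSG00000025867, chr13:54371349-54383917, plus strand), averaged 261 CPM, whereas its relative Cplx1 had 4 counts in all 9 libraries together and was not tested. Cadps, the CAPS protein that primes dense-core granules (ENSMUSG00000054423, chr14:12372563-12823079, minus strand), averaged 112 CPM, 28.4 times Cadps2. The Munc13 gene Unc13a averaged 12.1 CPM and Unc13b 3.54 CPM. Stxbp2, or Munc18-2, a syntaxin chaperone, averaged 24.3 CPM. For disassembly, the adaptor Napa averaged 65.9 CPM, 6.46 times Napb, and the ATPase Nsf 22.1 CPM.

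All 38 members are protein-coding in GENCODE M21. Exons of 10 of them overlap a gene on the opposite strand, among them Syt4, Syt7, Rimbp2 and Pclo, and exons of Rab27a overlap a gene on its own strand. The strand setting of the counting is not stated, so the counts of these genes are uncertain in that respect.

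The second question is whether the module moved with glucose. No member passed the test in any comparison, while 6 of 16 genes for the granule's cargo and membrane rose at 35 against 11.8 mM (0.626% of all genes). The cargo list was chosen with earlier results of these data known, so its count is a description and not independent evidence. Of the 38 members, 35 passed the expression filter and were tested. At 35 against 11.8 mM edgeR's quasi-likelihood test called 0 of 35 at an adjusted p under 0.05 (Benjamini-Hochberg), where it called 84 of all 9739 genes tested (0.863%). Of the 35 members, 5 had an unadjusted p under 0.05, against 10.5% of all genes, and DESeq2, whose own filter left 26 members with an adjusted p, called 0 with 4 at an unadjusted p under 0.05. At 20 against 11.8 mM edgeR called 0 of 35 members, against 0.185% of all genes, with 3 members at an unadjusted p under 0.05 (7.97% of all genes), and DESeq2 called 0 of the 15 members to which it gave an adjusted p, with 3. At 35 against 20 mM edgeR called 0 of 35, against 0.0308% of all genes, with 3 at an unadjusted p under 0.05 (5.29% of all genes), and DESeq2 called 0 of 38 with 1. A count of 0 among 35 lies near what these backgrounds give and says nothing particular about the module.

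The sizes of the changes were small. The median log2 fold change of the 35 members was -0.07 at 35 against 11.8 mM, 0.01 at 20 against 11.8 mM and 0.02 at 35 against 20 mM, where the median of all genes was within 0.01 of 0 in each. At 35 against 11.8 mM 13 of the 35 members lay above 0, against 49.6% of all genes. At 20 against 11.8 mM 18 lay above 0 and at 35 against 20 mM 20 did, against 49.8% of all genes in each. The data were tighter for the members than for genes at large, with a median standard error of 0.17 against 0.248 at 35 against 11.8 mM. The 95% interval of the log2 fold change lay within a 2-fold change either way for 29 of 35 members at 35 against 11.8 mM, for 30 at 20 against 11.8 mM and for 29 at 35 against 20 mM. For all genes tested the shares were 74.1%, 75.9% and 75.3% in the same order, so such bounds are not particular to the module. For each of the 23 members of at least 20 CPM the interval lay within a 2-fold change in all 3 comparisons. Within a 1.5-fold change it lay for 20, 21 and 20 of the 35 in the same order of comparisons, so changes of that size are not bounded for the others.

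**Figure D2:**
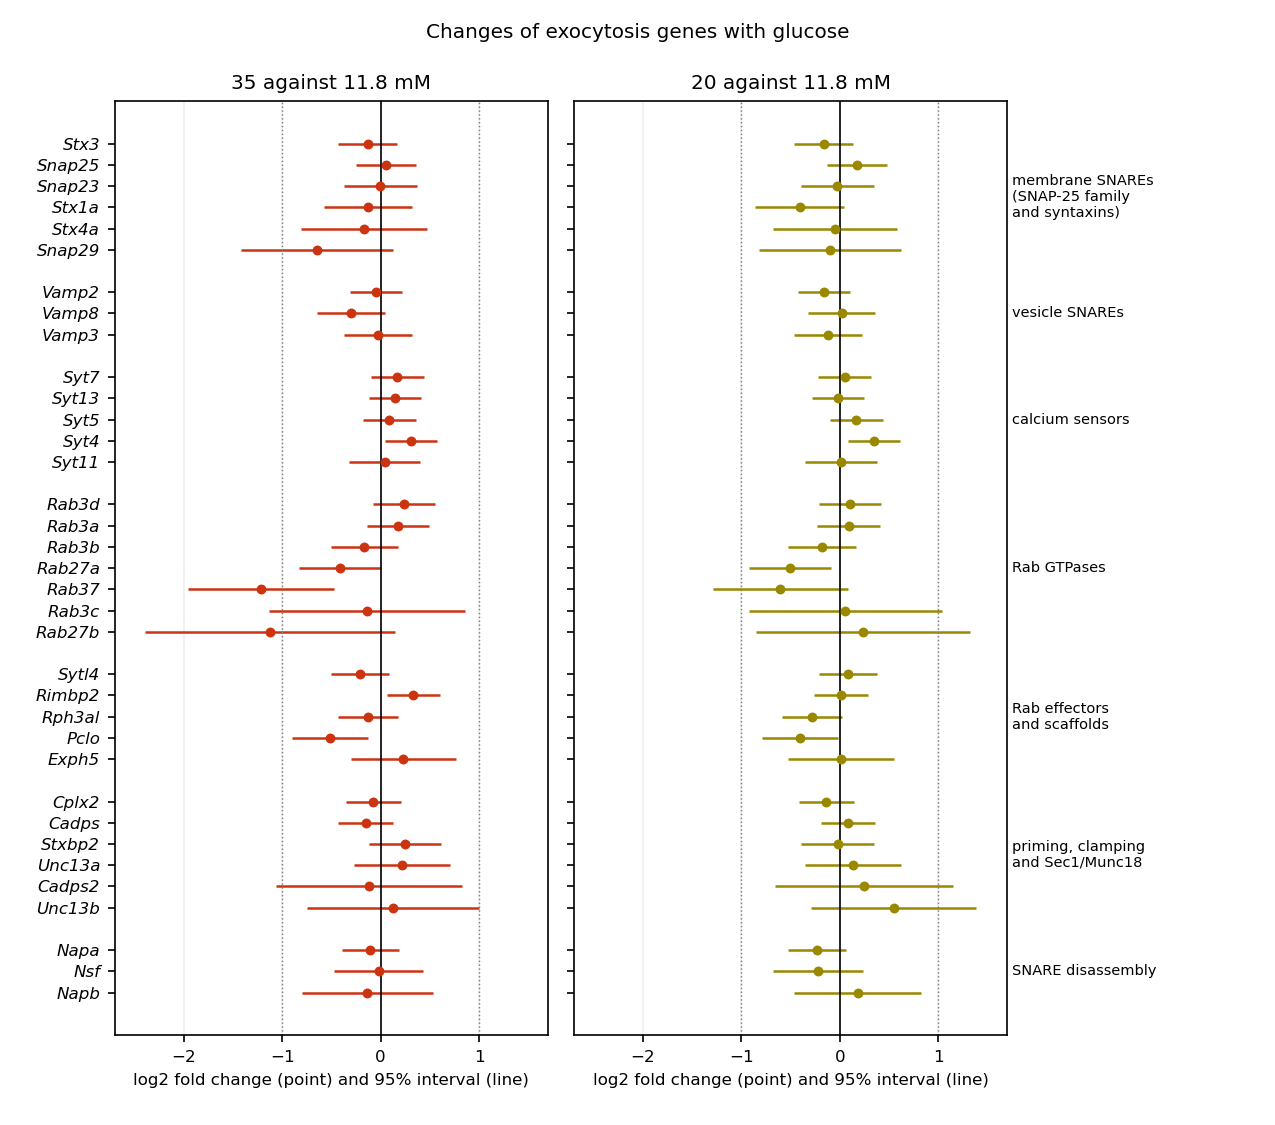
Log2 fold change (point) and 95% interval (line) of the 35 tested members at 35 against 11.8 mM and at 20 against 11.8 mM, by role; dotted lines mark a 2-fold change, and the 11.8 mM libraries are shared by both panels. Intervals are narrow for abundant members such as Vamp2 and Syt7 and widest for Rab27b and Rab3c, which had under 5 CPM.

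Among the most abundant members, Syt7, Vamp2, Cplx2, Syt13 and Syt5 had overlapping groups at 35 and 11.8 mM. Syt7 had 625, 476 and 573 CPM at 11.8 mM, 529, 581 and 622 CPM at 20 mM, and 671, 634 and 575 CPM at 35 mM. The log2 fold change of Syt7 was 0.17 ± 0.13 (SE) at 35 against 11.8 mM, with a 95% interval of -0.10 to 0.44, and 0.05 ± 0.13 at 20 against 11.8 mM. The 3 groups overlapped, and the lowest library was an 11.8 mM one. Vamp2 had 443, 391 and 379 CPM at 11.8 mM, 330.1, 372 and 384 CPM at 20 mM, and 434, 394 and 344 CPM at 35 mM. At 35 against 11.8 mM the log2 fold change of Vamp2 was -0.05 ± 0.13 (95% interval -0.31 to 0.21), and the groups overlapped. Cplx2 had 273, 292 and 256 CPM at 11.8 mM, 196, 269 and 281 CPM at 20 mM, and 255, 245 and 281 CPM at 35 mM. The 20 mM group held the lowest library of Cplx2, and the log2 fold change was -0.07 ± 0.14 at 35 against 11.8 mM. Syt13 had 233, 221 and 212 CPM at 11.8 mM, 197, 235 and 226 CPM at 20 mM, and 266, 257 and 217 CPM at 35 mM. The highest libraries of Syt13 were 2 of the 35 mM group, whose other library lay within the 11.8 mM range, and its log2 fold change was 0.15 ± 0.13 (95% interval -0.11 to 0.41). Syt5 had 107, 104 and 88.0 CPM at 11.8 mM, 102, 115 and 118 CPM at 20 mM, and 101, 111 and 105 CPM at 35 mM. Its groups overlapped too, with a log2 fold change of 0.09 ± 0.13 at 35 against 11.8 mM.

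Of the module's 5 tested synaptotagmins, Syt4, which in mouse beta cells is tied to postnatal maturation, had the largest log2 fold changes at 35 and at 20 against 11.8 mM. It had 79.4, 83.6 and 91.2 CPM at 11.8 mM, 107, 104 and 111 CPM at 20 mM, and 109.7, 102 and 104 CPM at 35 mM. All 3 libraries at 20 mM and all 3 at 35 mM lay above all 3 at 11.8 mM. Its log2 fold change was 0.31 ± 0.13 (SE; adjusted p = 0.364) at 35 against 11.8 mM and 0.34 ± 0.13 (SE; adjusted p = 0.43) at 20 against 11.8 mM, so it did not pass over all genes in either. It was -0.03 ± 0.13 at 35 against 20 mM. In single sub-library sets the value of Syt4 was as low as 0.18 at 35 against 11.8 mM and 0.13 at 20 against 11.8 mM. All 5 tested synaptotagmins of the module had a value above 0 at 35 against 11.8 mM, with a median of 0.15, and none was called. Synaptotagmins of the wider list described below did not all share this sign. Syt9 stood at -0.69 ± 0.32 (SE; adjusted p = 0.4525 by edgeR) and Syt14 at -0.36 ± 0.24, while Syt3 stood at 0.30 ± 0.18. Every 35 mM library of Syt9 lay below every 11.8 mM library. Summed over the module's 5 and Doc2b the level was 1109 ± 72.3 CPM at 35 mM and 1040.3 ± 73.2 CPM at 20 mM, against 988 ± 78.7 CPM at 11.8 mM, with overlap between the groups.

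**Figure D3:**
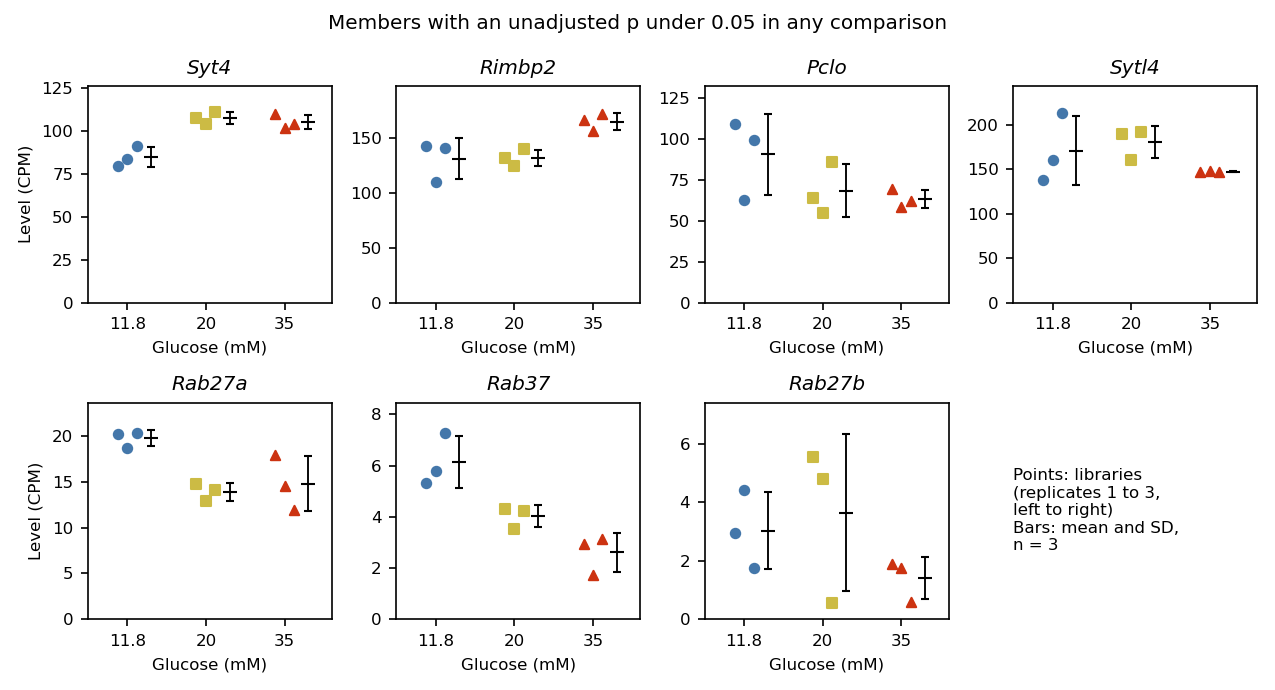
Level (CPM, linear axes from 0) in each library of the 7 members with an unadjusted p under 0.05 in any comparison, by glucose concentration; points are libraries and bars the mean and SD of 3. Syt4 lies higher at 20 and 35 mM than at 11.8 mM, Rab37 lies lower at each higher concentration, and none of the 7 passed the test over all genes.

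Rab GTPases held the largest log2 fold changes of the tested members, in genes of few counts. Rab37 had 5.33, 5.79 and 7.28 CPM at 11.8 mM, 4.31, 3.54 and 4.23 CPM at 20 mM, and 2.95, 1.74 and 3.12 CPM at 35 mM. No groups overlapped, with the 35 mM libraries lowest and the 11.8 mM libraries highest. For Rab37 the log2 fold change stood at -1.21 ± 0.36 (SE; adjusted p = 0.134) at 35 against 11.8 mM, -0.60 ± 0.34 at 20 against 11.8 mM and -0.61 ± 0.39 at 35 against 20 mM. That first value had the smallest p of any member in any comparison, and it did not pass. Rab27a had 20.3, 18.7 and 20.4 CPM at 11.8 mM, 14.8, 12.9 and 14.1 CPM at 20 mM, and 18.0, 14.5 and 11.9 CPM at 35 mM. Its libraries at 20 mM and at 35 mM all lay below those at 11.8 mM, and those of 20 and 35 mM overlapped. Its log2 fold change was -0.41 ± 0.20 (SE; adjusted p = 0.473) at 35 against 11.8 mM and -0.51 ± 0.20 (SE; adjusted p = 0.481) at 20 against 11.8 mM. Over the alternative fits these values of Rab27a ran from -0.77 to -0.23 and from -0.73 to -0.36. At 35 against 20 mM its value was 0.49 in the first sub-library set and -0.41 in the second. Rab27b had 2.93, 4.40 and 1.75 CPM at 11.8 mM, 5.54, 4.80 and 0.564 CPM at 20 mM, and 1.88, 1.74 and 0.568 CPM at 35 mM, or 90 counts in all. Replicate 3 at 20 mM and replicate 3 at 35 mM held the lowest values, and the log2 fold change at 35 against 20 mM was -1.35 ± 0.61 (SE; adjusted p = 0.932). The 4 Rab3 genes had values between -0.17 and 0.24 at 35 against 11.8 mM, none with an unadjusted p under 0.05, and Rab3b was lower in every 35 mM library than in every 11.8 mM library.

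Of the scaffolds, Rimbp2 and Pclo had values of opposite sign, and neither passed. Rimbp2 had 143, 109 and 141 CPM at 11.8 mM, 131, 125 and 139 CPM at 20 mM, and 166, 156 and 172 CPM at 35 mM. All 3 libraries at 35 mM lay above all others, while those at 20 and 11.8 mM overlapped. Its log2 fold change was 0.33 ± 0.13 (SE; adjusted p = 0.343) at 35 against 11.8 mM and 0.32 ± 0.13 (SE; adjusted p = 0.905) at 35 against 20 mM. In the first sub-library set alone the value of Rimbp2 at 35 against 11.8 mM was 0.19. Pclo had 109, 62.7 and 99.3 CPM at 11.8 mM, 64.1, 54.6 and 86.0 CPM at 20 mM, and 69.2, 58.4 and 62.2 CPM at 35 mM. The second 11.8 mM library lay among those of 20 and 35 mM, and the other 11.8 mM libraries lay above all libraries of the higher concentrations. The log2 fold changes of Pclo were -0.51 ± 0.19 (SE; adjusted p = 0.291) at 35 against 11.8 mM and -0.40 ± 0.18 (SE; adjusted p = 0.592) at 20 against 11.8 mM. Without that second 11.8 mM library it was called as a fall at 35 against 11.8 mM (log2 fold change -0.72 ± 0.17, adjusted p = 0.0204 by edgeR), the only call of a member in 21 alternative fits. Acinar markers at 11.8 mM ran opposite to Pclo, while at 35 mM the library with the highest acinar sum also had the highest Pclo. Their sums were 10934, 7387 and 7233 CPM at 35 mM and 12958, 8087 and 7480 CPM at 20 mM, against 4569, 13441 and 3829 CPM at 11.8 mM, where the low sums are those of the libraries with high Pclo. None of the 16 acinar markers tested was called at either concentration. With the summed acinar level as a covariate, the log2 fold change of Pclo was -0.33 ± 0.17 at 35 against 11.8 mM and -0.19 ± 0.18 at 20 against 11.8 mM. With the same covariate the values of Rimbp2 and Rab27b at 35 against 11.8 mM lay further from 0, at 0.41 ± 0.14 and -1.34 ± 0.60. No member was called in that fit. Whether acinar content accounts for the value of Pclo was not tested.

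Sytl4, the granuphilin gene, had 138, 161 and 214 CPM at 11.8 mM, 190.0, 159.9 and 192 CPM at 20 mM, and 147, 148 and 147 CPM at 35 mM. Its 35 mM libraries lay close together and below all 20 mM libraries, and the 11.8 mM libraries spread over both. Its log2 fold change was -0.29 ± 0.14 (SE; adjusted p = 0.932) at 35 against 20 mM and -0.21 ± 0.14 at 35 against 11.8 mM. Without 11.8 mM replicate 3 the value at 35 against 11.8 mM was -0.03, and single sub-library sets moved it to -0.04 and -0.67 and the value of Sytl4 at 35 against 20 mM to -0.07 and -0.57. Cadps had 103, 100.5 and 137 CPM at 11.8 mM, 126, 116 and 118 CPM at 20 mM, and 100.1, 103 and 103 CPM at 35 mM. Its 35 mM libraries also lay below all 20 mM libraries, with a log2 fold change of -0.23 ± 0.14, and the 11.8 mM libraries overlapped both. Stxbp2 was higher in every 35 mM library than in every 20 mM library, with a log2 fold change of 0.27 ± 0.18.

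Among the 35 tested members, libraries of the groups did not overlap for 2 that were higher and 3 that were lower at 35 against 11.8 mM, where 8.22% of all genes were higher and 6.69% lower without overlap (14.9% together). The counts were 1 and 3 at 20 against 11.8 mM (6.79% and 6.04% of all genes, 12.8% together), the higher one being Syt4 and the lower ones Rab37, Rab27a and Napa, and 2 and 3 at 35 against 20 mM (6.15% and 5.76% of all genes, 11.9% together). The shares of members are close to these backgrounds. Doc2b, which was not tested, was also higher without overlap at 35 and at 20 against 11.8 mM, on the few counts given above. The 3 comparisons share libraries, so a gene set apart by one concentration is counted more than once.

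The remaining tested members had no unadjusted p under 0.05 in any comparison. The 6 membrane SNAREs had log2 fold changes of -0.65 to 0.06 at 35 against 11.8 mM, the lowest being that of Snap29, a gene of few counts (-0.65 ± 0.38 (SE; adjusted p = 0.589)). The 3 vesicle SNAREs had values of -0.30 to -0.02, with Vamp8 lowest (-0.30 ± 0.17 (SE; adjusted p = 0.577)). The 6 tested priming and clamping genes had values of -0.15 to 0.25, and the 3 disassembly genes of -0.13 to -0.02. Doc2b, which was not part of the main test, stood at 1.60 ± 0.81 (SE; unadjusted p = 0.0469, adjusted p = 0.741 by edgeR) at 20 against 11.8 mM on the log2 scale in a fit with no expression filter, on 18 counts at 20 mM against 6 at 11.8 mM.

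The third comparison sets the machinery beside the cargo it releases. Summed over the 38 members, the level was 2910.3 ± 128 CPM at 35 mM and 2806 ± 177 CPM at 20 mM, against 2869 ± 156 CPM at 11.8 mM (mean ± SD, n = 3 libraries each), and the highest library was 1.16 times the lowest. Without Syt7 and Vamp2 the sum was 1893 ± 33.9 CPM at 35 mM and 1867 ± 103 CPM at 20 mM, against 1907 ± 82.3 CPM at 11.8 mM. Groups overlapped in both sums. Summed over 16 genes of granule cargo and granule membrane, insulin genes left out, the level was 41202 to 41453 CPM at 35 mM and 36823 to 38616 CPM at 20 mM, against 30211 to 32465 CPM at 11.8 mM, with no overlap between groups. Leaving out the dominant Iapp and Chga, it was 12349 to 12741 CPM at 35 mM and 11900.3 to 12398 CPM at 20 mM, against 9999 to 11261 CPM at 11.8 mM, and the ranges at 35 and 20 mM overlapped. The difference between the machinery and the cargo was not tested, and the cargo list was chosen with earlier results of these data known.

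**Figure D4:**
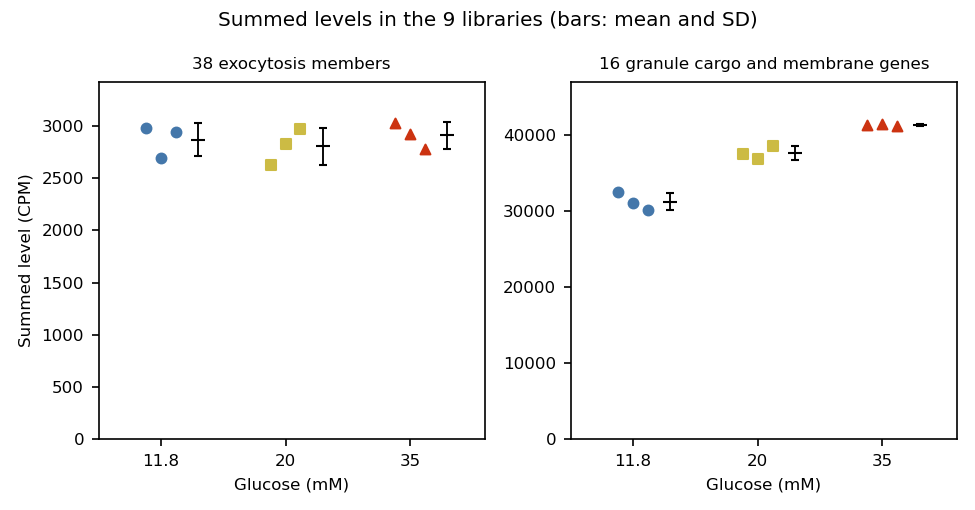
Summed level (CPM, linear axes from 0) of the 38 exocytosis members and of the 16 granule cargo and membrane genes in each library, by glucose concentration; points are libraries and bars the mean and SD of 3. The members' sums overlap between 2621 and 3032 CPM, while the cargo sums step up at each concentration, from at most 32465 CPM at 11.8 mM to at least 41202 CPM at 35 mM.

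Of the 16 cargo and membrane genes, 6 rose and 1 fell at 35 against 11.8 mM (0.626% and 0.236% of all genes), with a median log2 fold change of 0.21 beside the members' -0.07. Vgf, a peptide precursor stored in granules, had 173, 174 and 152 CPM at 35 mM, against 82.1, 81.7 and 50.7 CPM at 11.8 mM, and rose by 1.22 ± 0.16 (SE; adjusted p = 6.7e-05) on the log2 scale. Chgb, a chromogranin, rose by 0.78 ± 0.13 (SE; adjusted p = 0.000784), Ptprn, a membrane protein of the granule, by 0.78 ± 0.14 (SE; adjusted p = 0.00285), and Pcsk1, the convertase that cuts proinsulin, by 0.68 ± 0.13 (SE; adjusted p = 0.005). The 1 gene that fell was Resp18, a granule protein (-0.59 ± 0.14 (SE; adjusted p = 0.0255)), named here after its value was seen. Without 11.8 mM replicate 2 or 3 or any one 35 mM library Resp18 was not called (highest adjusted p = 0.182 by edgeR). The count of cargo genes called was 4 without 11.8 mM replicate 2 or without 35 mM replicate 2, all of them rises. At 20 against 11.8 mM 3 of the 16 rose, namely Vgf (0.97 ± 0.16 (SE; adjusted p = 0.00526)), Pcsk1 (0.75 ± 0.13 (SE; adjusted p = 0.00543)) and Chgb (0.73 ± 0.13 (SE; adjusted p = 0.00576)), and 0 fell (0.154% and 0.0308% of all genes). Without 20 mM replicate 1 the count was 1, with Pcsk1 and Chgb no longer called (adjusted p = 0.0849 and 0.0575 by edgeR), and without 11.8 mM replicate 1 it was 5. With the summed acinar level as a covariate Chgb was not called at 20 against 11.8 mM (0.68 ± 0.15, adjusted p = 0.0731 by edgeR). In single sub-library sets, with fewer reads, Vgf, Pcsk1 and Chgb kept a value above 0 and each missed the threshold in 1 or 2 of the 3 sets. At 35 against 20 mM edgeR called 0 of the 16, with 3 at an unadjusted p under 0.05, and DESeq2 called 0 with 4. The smallest p there were those of Slc30a8, the zinc transporter of insulin granules (-0.41 ± 0.13 (SE; adjusted p = 0.878)), and Ptprn (0.34 ± 0.14 (SE; adjusted p = 0.905)).

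**Figure D5:**
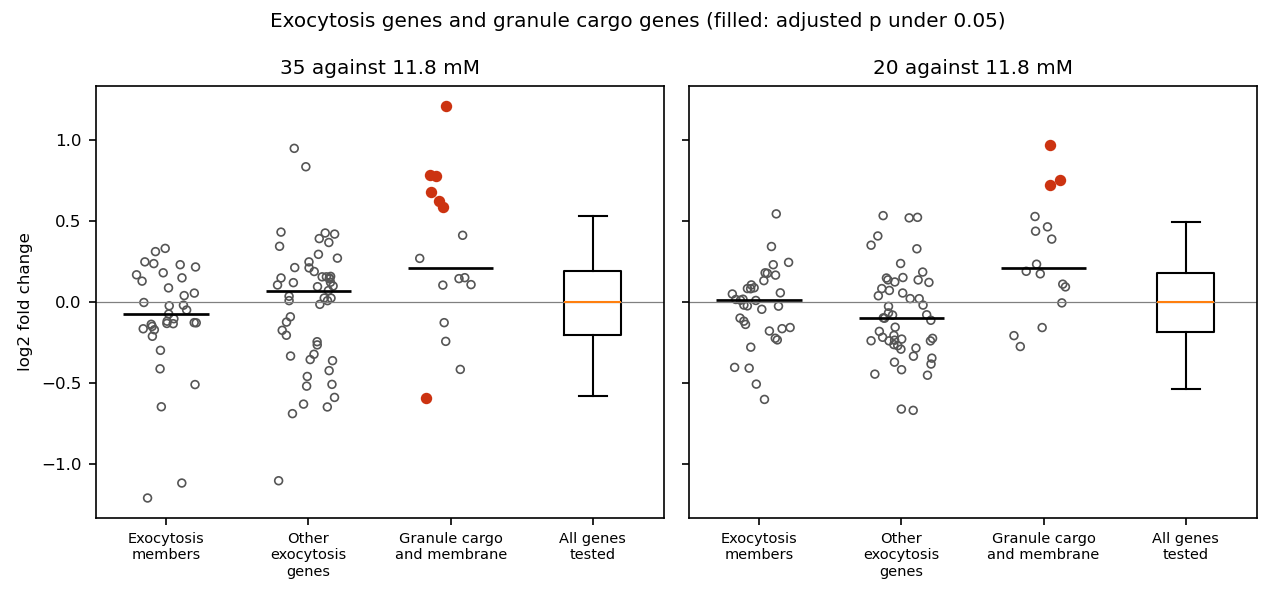
Log2 fold changes at 35 against 11.8 mM and 20 against 11.8 mM. Shown are the 35 tested exocytosis members, 51 tested other exocytosis genes and 16 granule cargo and membrane genes. Filled points have an adjusted p under 0.05, and the bars are medians. The box shows the quartiles of all 9739 genes tested, and its whiskers reach to lower and higher values of the same genes, not to their extremes. Filled points occur only in the cargo list, 7 at 35 mM and 3 at 20 mM.

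A wider list of 77 other exocytosis genes, among them further synaptotagmins, tomosyns, exocyst subunits and synaptic vesicle proteins, gave 0 calls as well. Of its genes 76 were in the table and 51 were tested, and edgeR called 0 in each comparison. Of all genes it called 0.863% at 35 against 11.8 mM, 0.185% at 20 against 11.8 mM and 0.0308% at 35 against 20 mM. A count of 0 among 51 lies near these shares. In the same order 7, 2 and 4 had an unadjusted p under 0.05 by edgeR, against 10.5%, 7.97% and 5.29% of all genes. DESeq2 gave an adjusted p to 30, 8 and 74 of the 76 in the same order and called 0, with 4, 3 and 3 at an unadjusted p under 0.05. Sytl1, a synaptotagmin-like effector of Rab27, had 45.0, 47.9 and 39.6 CPM at 11.8 mM, 54.8, 63.2 and 51.3 CPM at 20 mM, and 56.3, 60.1 and 62.2 CPM at 35 mM. Its libraries at 20 and 35 mM all lay above those at 11.8 mM, with log2 fold changes of 0.43 ± 0.14 (SE; adjusted p = 0.227) at 35 against 11.8 mM and 0.35 ± 0.14 (SE; adjusted p = 0.505) at 20 against 11.8 mM. Sv2b, a synaptic vesicle glycoprotein, stood at -1.11 ± 0.40 (SE; adjusted p = 0.27) at 35 against 11.8 mM, and at -1.71 without 35 mM replicate 2. Syt3 had 35.1, 35.1 and 38.1 CPM at 20 mM, against 30.1, 23.8 and 20.7 CPM at 11.8 mM, and its log2 fold change stood at 0.53 ± 0.18 (SE; adjusted p = 0.348). That of Syt3 turned direction between sub-library sets, with -0.15 in the first and 1.13 in the second. At 35 against 20 mM the smallest p were those of Doc2g, a Doc2 protein (1.02 ± 0.33 (SE; adjusted p = 0.893)), and Erc2, an active zone scaffold (1.28 ± 0.50 (SE; adjusted p = 0.905)), both under 10 CPM.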

How the data were processed

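RNA of cultured islets was sequenced as CEL-Seq2 libraries, which tag transcript 3' ends with a barcode and a random molecular identifier, from 3 ng of RNA, per the labels' protocols. The deposited table holds whole-number read counts of each gene in 27 barcoded sub-libraries, 3 for each of the 9 samples. The submitters' processing notes name cutadapt, TopHat, HTSeq, DESeq2 and GRCm38 p4. Their versions, the annotation and the strand setting are not stated. Counts were not collapsed by identifier, since 16 genes exceeded the 4096 possible identifiers in a sub-library (highest 605402), so copied reads inflate depth and standard errors rest on library spread.

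Sub-libraries were tied to samples by the deposited sample sheet and summed. Left out were 92 ERCC spike-ins and 5 summary lines (19.6% to 29.9% of counted reads). Of 2 other deposited tables, the 30 columns of values matched no label and were not used. Symbols and coordinates came from GENCODE M21 (GRCm38), which matched 21781 of 22048 identifiers, and promoters from RefSeq (GRCm38.p6).

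Tests used edgeR 4.0.16 in R 4.3.3 with TMM scaling, filterByExpr by group, 1 mean per concentration fitted to the 9 libraries together (residual degrees of freedom 6) and the robust quasi-likelihood test, two-sided, with Benjamini-Hochberg adjustment over 9739 genes. A change was called at an adjusted p under 0.05. An exact permutation test of 3 against 3 libraries cannot give a p under 0.1. The 95% intervals use the fit's own standard errors. Alternatives were other scalings, filters, DESeq2 1.42.0, an acinar covariate, each library left out and single sub-library sets. Removal of the 2 sub-libraries that stood apart was added after seeing the data. The method was checked on simulated counts. Every library differed from the others of its group beyond sampling noise (chi-square per degree of freedom 3.39 to 15.6).

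The members, the gene lists and the tests were chosen with earlier results of these data known. Values in every library are given for members with an unadjusted p under 0.05 in any comparison, since none was called, and for the 8 with the highest mean; other members are given by range and count. From the cargo list and the list of other exocytosis genes, up to 4 called genes a comparison are named, or, where there was none, the 2 of smallest p.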

Additional observations from a re-analysis of the deposited data

How the results depend on the processing

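Over 21 alternative fits, 1 of them by DESeq2, the count of members called stayed at 0 in each comparison, apart from leaving out single libraries at 35 against 11.8 mM, where it was 0 to 1, the 1 being Pclo without 11.8 mM replicate 2. No called value changed sign. Members with an unadjusted p under 0.05 numbered 2 to 5 at 35 against 11.8 mM and 0 to 5 at 20 against 11.8 mM. The replicate numbers were fitted as a block and gave 0 members in each comparison and 74, 13 and 3 of all genes, against 84, 18 and 3 without it. Deviations of same-numbered libraries had correlations of -0.146 to 0.0459, and 2 of 9 correlated best with their own number. These values show no pairing by number, but with so few libraries they cannot exclude a shared origin. Calls over all genes at 35 against 11.8 mM were 148 with no expression filter, 12, 42 and 39 with single sub-library sets, and 41 to 138 without single libraries. At 20 against 11.8 mM they were 51 with no filter, 57 by DESeq2, 11 with only those concentrations fitted, 10 with an acinar covariate, 2 and 8 with the first and second sub-library set, and 7 to 35 without single libraries. At 35 against 20 mM they were 7 with the acinar covariate, 1 with each sub-library set and 1 to 7 without single libraries. Of the cargo genes, 2 to 9 were called at 35 against 11.8 mM and 0 to 6 at 20 against 11.8 mM, the lowest with the first sub-library set and the highest by DESeq2. The cause of these shifts was not tested. Fewer reads limit the 12 tested members under 20 CPM, whose highest library was 1.68 to 9.83 times the lowest, against 1.26 to 2.17 times for the 23 above.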

Other observations

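Of the islet marker lists, beta cell markers had 1 gene that rose at 35 against 11.8 mM, Iapp (log2 fold change 0.63 ± 0.13, adjusted p = 0.00865 by edgeR), which is also in the cargo list. Alpha cell markers had 1, Ttr, which was also called as a rise at 20 against 11.8 mM (adjusted p = 0.0489 by edgeR). Delta and PP cell, acinar, ductal, fibroblast and stellate, endothelial, macrophage and immune, and Schwann and neuron markers had 0 calls by edgeR in any comparison. Counts at an unadjusted p under 0.05 among them were highest for fibroblast and stellate markers at 35 against 11.8 mM, with 4 of 10 tested, all lower. Of all genes 10.5% had such a p there, in either direction. These genes were named after their values were seen.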
